A study of Mus musculus with 6 samples.

Results

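Small nucleolar RNAs and small Cajal body RNAs were described in eosinophils from the small intestinal lamina propria of wild-type BALB/c mice. The members are all gene symbols in the transcript tables that start with Snord, Snora or Scarna and whose transcripts are under 350 nt. This gave 118 of 23283 symbols: 73 Snord, 36 Snora and 9 Scarna. The untreated group was 3 cultures kept for 4 h without added cytokine, and the GM-CSF group was 3 cultures kept for 4 h with GM-CSF at 10 ng/ml. GM-CSF is a cytokine that prolongs the survival of eosinophils and activates them. For all 6 cultures, Trizol was used to extract the RNA and a TruSeq Stranded mRNA kit, which selects polyadenylated RNA, to make the library. The labels do not say whether the cultures came from separate animals, so every p-value refers only to these cultures. The p-values of single genes also draw on the spread of other genes.

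Small nucleolar RNAs are short nuclear RNAs that guide the chemical modification of other RNAs by base pairing. Box C/D RNAs (Snord) carry a C box near the 5′ end and a D box near the 3′ end, bind fibrillarin, and direct ribose methylation, mostly of ribosomal RNA. Box H/ACA RNAs (Snora) end in an ACA box, bind dyskerin, and direct pseudouridylation. Small Cajal body RNAs (Scarna) are related guides that are kept in Cajal bodies and act on spliceosomal RNAs. In mammals most are released from introns of host genes, many of which encode ribosomal proteins, and the mature RNAs carry no poly(A) tail. Values from libraries of polyadenylated RNA, as here, therefore cannot be read as levels of the mature RNAs.

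The following sequences are shown because the results below turn on these members, either by their level or by the comparison of the groups. They are the RNA-strand sequences of the GENCODE M21 annotation of the mm10 genome build, written as DNA, and come from the reference genome rather than from BALB/c reads. In the box C/D members, capitals mark the C box core TGATG where it starts and ends within the first 20 bases and the D box CTGA where it lies within the last 15 bases. Snord34 lies at chr7:45126601-45126670 on the minus strand, Snord16a at chr9:64175423-64175521 on the plus strand, Snord96a at chr11:48802032-48802112 on the plus strand and Snord42a at chr11:78181299-78181363 on the minus strand.
Snord34: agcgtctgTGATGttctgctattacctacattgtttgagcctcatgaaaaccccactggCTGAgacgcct
Snord16a: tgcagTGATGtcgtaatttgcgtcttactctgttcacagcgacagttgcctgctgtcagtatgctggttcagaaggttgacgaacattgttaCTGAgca
Snord96a: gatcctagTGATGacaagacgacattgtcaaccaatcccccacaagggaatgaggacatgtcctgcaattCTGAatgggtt
Snord42a: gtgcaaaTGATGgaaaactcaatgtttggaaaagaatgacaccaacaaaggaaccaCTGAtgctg

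In the box H/ACA members, capitals mark ACA where it lies within the last 6 bases. Snora3 lies at chr7:109520120-109520251, Snora70 at chrX:74272484-74272620 and Snora81 at chr16:23110756-23110933, all on the plus strand. Snora81 has no ACA in this window of the annotated sequence.
Snora3: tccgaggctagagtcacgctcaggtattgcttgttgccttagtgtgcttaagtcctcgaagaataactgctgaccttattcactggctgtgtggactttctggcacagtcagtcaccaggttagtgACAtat
Snora70: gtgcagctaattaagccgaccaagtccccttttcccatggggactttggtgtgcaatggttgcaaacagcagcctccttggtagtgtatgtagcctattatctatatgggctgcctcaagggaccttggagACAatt
Snora81: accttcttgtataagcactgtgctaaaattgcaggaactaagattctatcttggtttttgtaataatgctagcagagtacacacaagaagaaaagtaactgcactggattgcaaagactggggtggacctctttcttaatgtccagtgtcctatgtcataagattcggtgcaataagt

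Scarna2, a guide for the U2 spliceosomal RNA, is annotated over 414 nt at chr3:108554338-108554751 on the minus strand, but the deposited tables give its transcript 61 nt. Here capitals mark those 61 bases (bases 350 to 410 of the annotated RNA, chr3:108554342-108554402), with up to 20 bases on each side in lower case.
Scarna2: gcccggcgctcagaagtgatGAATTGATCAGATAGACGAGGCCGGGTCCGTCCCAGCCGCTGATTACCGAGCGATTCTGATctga

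Of the 118 members, 117 had a GENCODE sequence. The core TGATG was found by its exact letters, on the RNA strand only, in 61 of 72 Snord (84.7%) and 0 of 36 Snora, and CTGA in 65 of 72 Snord (90.3%) and 2 of 36 Snora (5.56%). ACA near the 3′ end was found in 33 of 36 Snora (91.7%) and 4 of 72 Snord (5.56%). The C box was first searched as the longer TGATGA, which was found in 45 of 72 Snord (62.5%) and 0 of 36 Snora, and the shorter core was chosen after that result was seen, because Snord34, Snord16a and Snord42a lacked the longer form. The C box was thus found in Snord and in no Snora under both forms, but the share of Snord that held it depended on the form searched.

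The transcript lengths in the tables were shorter than the annotated RNA in 99 of these 117 members, by a median of 12 nt over all 117, and 35 had under 80% of the annotated length. Of 67 Snord whose table length equals that of their RefSeq record, 23 held both the TGATG and the CTGA inside the measured stretch, and 18 held both the longer TGATGA and the CTGA. Snord42a, for example, was measured over 45 nt (bases 18 to 62 of 65), which leaves its C box outside. Snord118 (the U8 RNA, which acts in maturation of the large ribosomal subunit) has 44 nt in the tables against 135 nt annotated, and Snord14a (U14, which acts in maturation of the small subunit) has 22 nt against 87 nt.

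What 1 value means depends on this length. The tables hold FPKM, a number of fragments scaled to transcript length and to 1000000 mapped fragments, and the bounds of the deposited confidence intervals multiplied by transcript length step in whole units, which gave 36 bases per counted read and between 22.8 and 36.8 M reads per library. With a fragment length of 200 ± 80 nt (mean and SD of a normal distribution) counted from 34 nt upwards, 270 of 277 member values above 0 (97.5%) came out as whole reads within 0.05 read. The lower end of 34 nt is not stated by the submitters: it was chosen as the one that gave the most whole reads in these same values, so this share is no independent check of the relation. The next best lower end, 33 nt, gave 42.2%. The read numbers below come from this relation and are approximate. Between libraries, 1 read was worth from 536 to 865 FPKM on a transcript of 45 nt, from 5.74 to 9.27 FPKM on 120 nt and from 0.46 to 0.75 FPKM on 248 nt. In each library between 89.4% and 97.6% of member values lay above their own deposited confidence interval, against 10.6% to 15.02% of transcripts of 350 nt and longer.

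**Figure D1:**
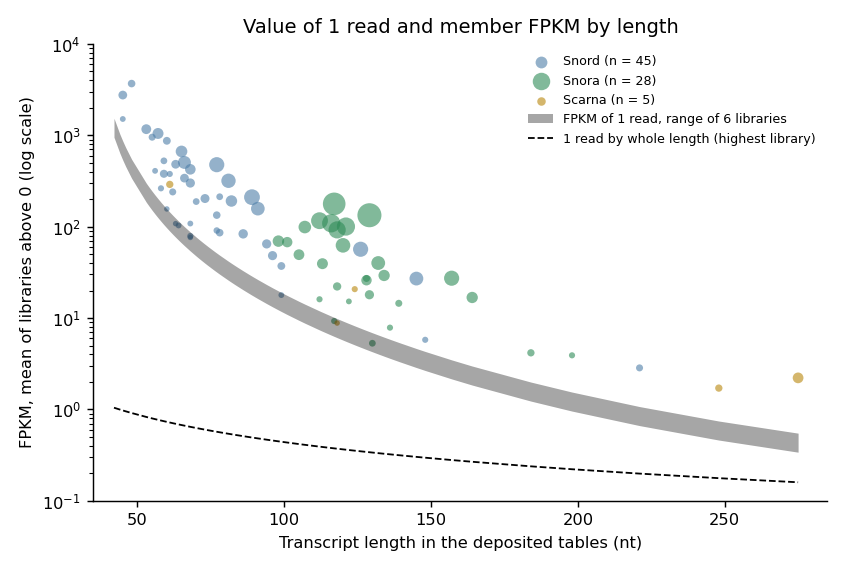
Mean FPKM over the libraries above 0 (log scale) against transcript length for the 78 members with reads. Point area grows with the total reads of the member, the grey band is the FPKM of 1 read in the 6 libraries and the dashed line is its value by plain length. The shortest members have the highest FPKM on few reads: Snord42a, at 45 nt, holds 13 reads in all, while Snora70, at 129 nt, holds 141.

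Detection was partial in every library. Of the 118 members, 61 were above 0 FPKM in the first untreated library, 47 in the second and 46 in the third. With GM-CSF 44, 36 and 42 were above 0. The GM-CSF libraries were all lower, at 40.7 ± 4.16 (SD, n = 3) against 51.3 ± 8.39 (SD, n = 3), with an exact two-sided permutation p = 0.1, the smallest that 3 against 3 can give. At 10 FPKM or more, 56, 39 and 37 members were detected in untreated and 39, 32 and 39 in GM-CSF libraries, and the groups overlapped (exact permutation p = 0.6). After thinning to the depth of the shallowest library, 58.9, 43.4 and 44.0 members would be expected with a read in untreated and 42.6, 33.4 and 41.0 in GM-CSF libraries (exact permutation p = 0.1).

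GM-CSF replicate 2 was the deepest library, at 36.8 M reads, and had the fewest members detected. Its shares of microRNA genes and of longer genes above 0 were also the lowest, so this is not particular to the members. It had 0 members at 1 read, against 4 to 11 in the other libraries, and 130 genes with a single transcript at 1 read, against 289 to 562 in the others. Without GM-CSF replicate 2 the difference in members detected was -8.33, and without untreated replicate 1 it was -5.83, against -10.7 with all libraries. Thinning adjusts for depth alone and cannot restore low counts that a library lacks, so it does not check GM-CSF replicate 2. The part of this library in the difference between the groups was otherwise not tested.

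Over the 6 libraries, 39 members were listed at 0 throughout, 63 were above 0 in 1 to 5 libraries and 16 in all 6. Members listed at 0 in all libraries were 28 of 73 Snord, 7 of 36 Snora and 4 of 9 Scarna. The 16 seen in every library were 11 Snora (Snora3, Snora17, Snora28, Snora31, Snora33, Snora41, Snora64, Snora65, Snora68, Snora70 and Snora75) and 5 Snord (Snord15b, Snord16a, Snord22, Snord34 and Snord35a). No Scarna was seen in all 6. Of the 79 members above 0 anywhere, Snora26 had no recovered read, and Scarna13 in GM-CSF replicate 2 was listed at 3e-06 FPKM, also without a read.

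The zeros were counted by length. All 6 members under 45 nt, among them Snord118, Snord14a and the 42 nt of Scarna9, were at 0 in every library, and the shortest transcript of any gene above 0 had 38 nt. Of members from 45 to under 60 nt, 9 of 19 were at 0 throughout, of those from 60 to under 80 nt 13 of 36, of those from 80 to under 120 nt 10 of 32, and of those of 120 nt and longer 1 of 25. Snord116, a cluster of brain-expressed box C/D RNAs of the Prader-Willi region, was at 0 in all 6 libraries over its 8 listed transcripts. Snord13, Snora73a, Snora73b and Snord115 matched no symbol and were not analysed here.

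**Figure D2:**
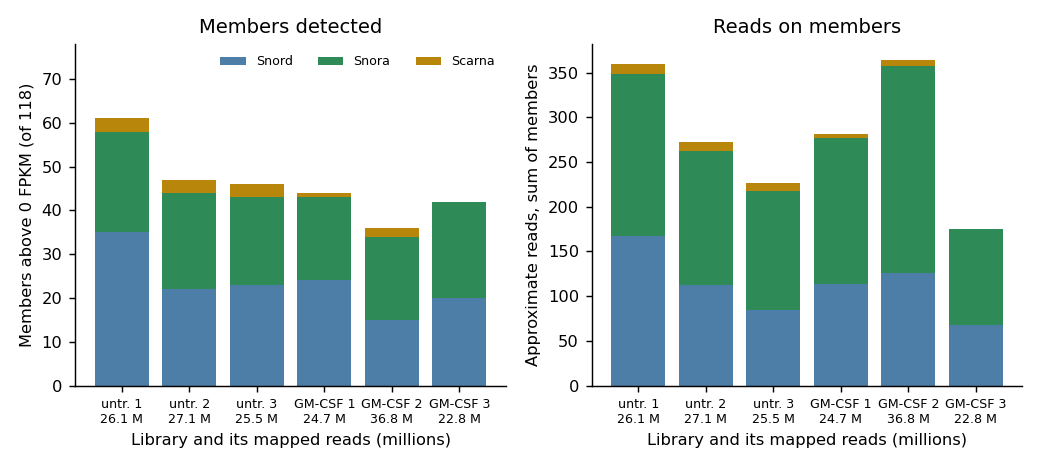
Members above 0 FPKM (left, of 118) and approximate reads summed over the members (right) in each library, by class, with the mapped reads of each library (M) under its name. The 3 GM-CSF libraries hold 36 to 44 detected members against 46 to 61 in the untreated, while summed reads overlap between the groups.

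All members together held few reads. They summed to 359, 273 and 226 reads in untreated and 281, 364 and 175 in GM-CSF libraries, or 13.8, 10.1 and 8.88 RPM (reads per 1000000 mapped reads) against 11.4, 9.89 and 7.69. The groups overlapped (exact permutation p = 0.6). The summed FPKM was 13412, 13534 and 6893 in untreated and 9419, 10305 and 6111 in GM-CSF libraries (exact permutation p = 0.3). Between 1.33% and 2.86% of all FPKM in a library thus belonged to members that held at most 13.8 RPM.

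By class, untreated libraries had 5.90 ± 0.92 (SD, n = 3) RPM on Snora RNAs, and GM-CSF libraries 5.85 ± 1.01 (SD, n = 3), with overlap (exact permutation p = 1.0). Snord RNAs had 4.63 ± 1.59 (SD, n = 3) and 3.68 ± 0.83 (SD, n = 3), also with overlap (exact permutation p = 0.6). Scarna RNAs took 0.42, 0.40 and 0.31 RPM in untreated and 0.20, 0.16 and 0 in GM-CSF libraries, without overlap (exact permutation p = 0.1, the smallest possible). These were 11, 10.8 and 8 reads against 5, 6 and 0, from 5 of the 9 Scarna. Scarna13 gave 7, 4.82 and 6 reads in untreated and 5, 0 and 0 in GM-CSF libraries. Scarna6 went against this order, with 1, 0 and 0 reads in untreated and 0, 6 and 0 in GM-CSF libraries. In these bulk libraries fewer cells of a type and less RNA per cell cannot be told apart.

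The order of the members depended on the scale. The member with the highest FPKM in its library was Snord42a in untreated replicate 1 and GM-CSF replicates 2 and 3, Snord68 in untreated replicate 2, Snord37 in untreated replicate 3 and Snord34 in GM-CSF replicate 1, and these values rested on between 2 and 15 reads. The member with the most reads was Snora64 (untreated replicates 1 and 2, GM-CSF replicate 3), Snora65 (untreated replicate 3) or Snora70 (GM-CSF replicates 1 and 2), at 13 to 51 reads. Of the 118 members, 37 held fewer than 10 but some reads in all libraries together, and 32 had more than 50% of their reads in 1 library.

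Snora70, a box H/ACA guide for ribosomal RNA in the gene of the ribosomal protein Rpl10, held the most reads. It had 105, 89.6 and 121 FPKM in untreated libraries (17, 15 and 19 reads) and 183, 224 and 78.1 FPKM in GM-CSF libraries (28, 51 and 11 reads). GM-CSF replicate 3 was below all untreated libraries and the other two above them, and the limma difference was 0.49 on the log2 scale with an SE of 0.37 (adjusted p = 0.41). Without GM-CSF replicate 3 it was 0.95 with adjusted p = 0.011, so 1 library decided this call. Snora64, in the gene of the ribosomal protein Rps2 and also a box H/ACA RNA, had 31, 29 and 9 reads in untreated and 21, 21 and 13 in GM-CSF libraries.

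Among the Snord, Snord35a held the most reads, with 13, 9 and 3 in untreated and 2, 25 and 5 in GM-CSF libraries. Snord16a, a guide in the Rpl4 gene, had the smallest SE of the Snord: 138, 133 and 212 FPKM in untreated and 169.9, 81.6 and 211 FPKM in GM-CSF libraries, from 5 to 9 reads in each. Its log2 difference was -0.14 with an SE of 0.36 (adjusted p = 0.84), and the groups overlapped. Snord22 (U22, an RNA of small-subunit rRNA processing from the non-coding host gene Snhg1) had 94.6, 32.6 and 55.4 FPKM in untreated and 78.4, 47.9 and 31.0 FPKM in GM-CSF libraries, a log2 difference of -0.18 with an SE of 0.45 (adjusted p = 0.82).

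**Figure D3:**
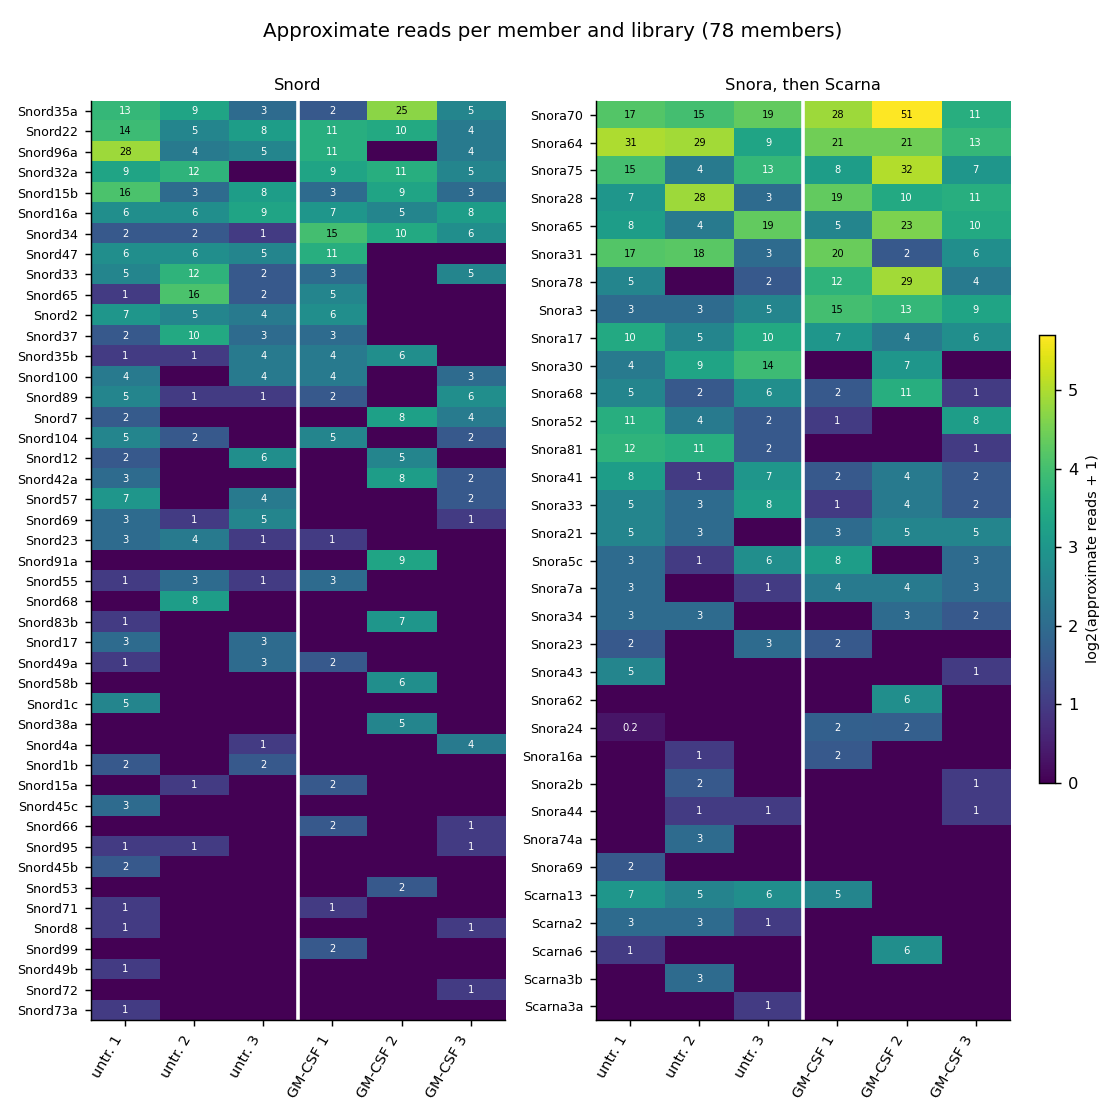
Approximate reads of the 78 members with reads in each of the 6 libraries, untreated left and GM-CSF right of the white line, sorted by total within class, with colour on a log2(reads + 1) scale. The highest value is 51 reads, for Snora70 in GM-CSF replicate 2, and Snord47, Snord65, Snord2, Snord37, Snord23 and Snord55 are empty in GM-CSF replicates 2 and 3.

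The spread between replicates was wide. The 75 members with a mean of at least 1 FPKM, which were the members tested, had a median SD within groups of 2.56 on the log2(FPKM + 1) scale, against 0.096 for 9890 genes of 350 nt and longer. Of these 75, 78.7% had a 0 in at least 1 library, against 0.27% of the longer genes. MicroRNA genes under 350 nt had a like spread, with a median SD of 2.53 over 110 genes tested. At like read numbers the members stood nearer to the longer genes: with a mean of 1 to 5 reads, the median coefficient of variation was 107% for 35 members and 104% for 2085 longer genes. With 5 to 10 reads it was 62.7% for 11 members and 55.9% for 992 longer genes, and with 10 to 30 reads 62.9% for 6 members and 34.7% for 1670 longer genes.

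GM-CSF was then compared with untreated in each member by limma on log2(FPKM + 1), fitted on the 10106 genes that averaged 1 FPKM or more and adjusted over them by the Benjamini-Hochberg method. Among the 75 members tested, 2 rose (Snord34 and Snora3) and 2 fell (Scarna2 and Snora81) at an adjusted p under 0.05. That is 5.33% of the members, where 21.9% of all genes tested passed, 7.68% upwards and 14.2% downwards. Groups did not overlap in 5 of the 75 (6.67%: the 4 above and Snora33), against 39.2% of all genes tested. At an unadjusted p under 0.05 there were 14 members (18.7%), against 34.4% of all genes. The median log2 difference was -0.65 over the members and -0.05 over all genes, and 47 members were fitted lower and 28 higher. Of 48 members that differed by more than 1 on the log2 scale, 44 did not pass the test. The median SE was 1.63 over the members and 0.081 over all genes.

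Genes listed as markers of other cells moved in the same comparison. All 5 B and plasma cell markers tested fell (of 7 listed, with Ms4a1 and Pax5 under 1 FPKM), and their summed level was 31.0 to 38.5 FPKM in untreated and 16.7 to 17.7 in GM-CSF libraries. All 4 T cell markers tested fell (of 7, with Cd4, Cd8a and Trat1 under 1 FPKM), from a sum of 27.2 to 28.2 to one of 14.7 to 17.1 FPKM. Of 7 epithelial markers tested 3 fell (sum 51.6 to 56.3 and 33.0 to 44.5 FPKM, Vil1 under 1 FPKM), and of 5 macrophage and dendritic cell markers 3 fell (832 to 889 and 864 to 939 FPKM, C1qa and C1qb under 1 FPKM). Most of this last sum was Emr1 (means of 368 untreated and 426 FPKM with GM-CSF) and Itgax (450 and 431 FPKM), which did not pass. Emr1 and Itgax stood above Csf2ra and Ccr3 of the eosinophil list, and bulk values do not show which cells hold them. The sum is therefore no measure of macrophages or dendritic cells. The 3 that fell were Csf1r (13.0 and 6.70 FPKM), Apoe (21.7 and 13.5 FPKM) and Lyz2 (17.6 and 12.9 FPKM). The 7 eosinophil markers, all tested, summed to 1248 to 1361 and 891 to 952 FPKM, and 3 fell. These were Alox15 (means of 461 untreated and 157 FPKM with GM-CSF), Il5ra (25.1 and 11.2 FPKM) and Epx (6.62 and 4.27 FPKM). The 4 that did not pass were Siglec5 (170 and 170 FPKM), Csf2ra (333 and 324 FPKM), Ccr3 (289 and 251 FPKM) and Prg2 (8.85 and 8.93 FPKM). No listed marker was at 0 in all libraries. The part of these cells in the values of the small nucleolar RNAs was not tested.

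Snord34 is a box C/D guide in an intron of Rpl13a, a ribosomal protein gene. It had 174, 168 and 89.4 FPKM in untreated libraries (2, 2 and 1 reads) and 1381, 619 and 599.8 FPKM in GM-CSF libraries (15, 10 and 6 reads). All GM-CSF libraries were above all untreated libraries. It rose by 2.53 on the log2 scale (SE 0.39, limma adjusted p = 0.0054). This SE is drawn toward a trend over all genes tested, where genes of 350 nt and longer had a median of 724 reads. It does not model the counting error of 5 reads untreated and 31 with GM-CSF. On the scale of reads the difference was 1.99 (SE 0.53, limma adjusted p = 0.014). The call held under all 17 alternative settings, with log2 differences from 1.99 to 2.74, but none of the 17 was a model of read counts.

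The other RNAs of the same Rpl13a transcript, which are known as a group from studies of cell stress, gave other values. Snord32a had 328, 422 and 0 FPKM in untreated and 347, 285 and 209 FPKM in GM-CSF libraries, and its groups overlapped (log2 difference 2.41, SE 2.23, adjusted p = 0.51). Snord33 had 5, 12 and 2 reads in untreated and 3, 0 and 5 in GM-CSF libraries, a log2 difference of -2.61 with an SE of 1.97. Snord35a differed by -0.23 with an SE of 0.84. Whether Snord34 differed from these 3 was not tested.

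Snora3, a box H/ACA RNA in the Rpl27a gene, had 24.3, 23.4 and 41.4 FPKM in untreated libraries (3, 3 and 5 reads) and 128, 74.6 and 83.4 FPKM in GM-CSF libraries (15, 13 and 9 reads). Here too the GM-CSF libraries were all above the untreated. It rose by 1.66 on the log2 scale (SE 0.27, limma adjusted p = 0.0070). As for Snord34, this SE does not model counting error, here of 11 reads untreated and 37 with GM-CSF. On the scale of reads the difference was 1.46 (SE 0.45, limma adjusted p = 0.031). The call held under all 17 alternatives, with log2 differences from 1.40 to 1.92, but none of the 17 was a model of read counts.

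Snora81, a box H/ACA RNA in the gene of the translation factor Eif4a2, had 31.3, 27.6 and 5.34 FPKM in untreated libraries (12, 11 and 2 reads) and 0, 0 and 2.98 FPKM in GM-CSF libraries (0, 0 and 1 reads). The groups did not overlap, although the lowest untreated library stood at 2 reads. It fell by 3.51 on the log2 scale (SE 0.79, limma adjusted p = 0.022). The call ended under 8 of 17 alternatives: the adjusted p was 0.067 without untreated replicate 1, 0.075 without untreated replicate 2, 0.068 without GM-CSF replicate 1 and 0.069 without GM-CSF replicate 2. Over the 17 it ran from 0.010 to 0.082.

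Scarna2 had 378, 364 and 129 FPKM in untreated libraries, and each of the 3 GM-CSF libraries lists it at 0. It was the only member above 0 in every library of 1 group and at 0 in every library of the other, 1 of 79 members above 0 anywhere, against 0.482% of all genes above 0 anywhere. Its values are 3, 3 and 1 reads against 0, so no fold is given: the limit that a count of 0 allows is 3 reads per library. limma gave a log2 difference of -8.03 (SE 0.40, adjusted p = 5.08e-05) on log2(FPKM + 1), a value that depends on the pseudocount (-11.4 with a pseudocount of 0.1). On the scale of reads the difference was -1.70 (SE 0.70) and did not pass the threshold (limma adjusted p = 0.095, against 3.54e-07 to 0.095 over the 17 alternatives).

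**Figure D4:**
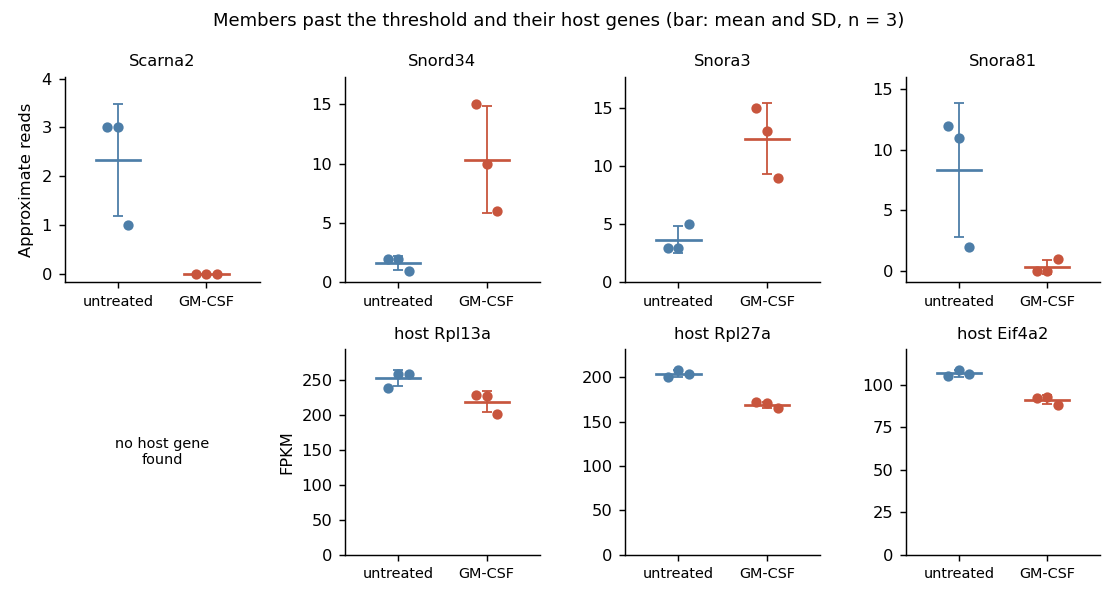
Approximate reads of Scarna2, Snord34, Snora3 and Snora81 (top) and FPKM of their host genes (bottom) in 3 untreated and 3 GM-CSF libraries; horizontal bars are means and error bars SD. Snord34 and Snora3 are at 6 to 15 reads with GM-CSF and at 1 to 5 without, while their host genes Rpl13a and Rpl27a stand lower with GM-CSF.

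On the scale of approximate reads, 5 members passed (6.67%, against 26.0% of all genes): Snord34, Snora3, Snora81, Snora30 and Snora78, the last 2 named after their values were seen. Snora30 had 4, 9 and 14 reads in untreated and 0, 7 and 0 in GM-CSF libraries. Snora78 had 5, 0 and 2 reads in untreated and 12, 29 and 4 in GM-CSF libraries. The groups overlapped in both.

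Other members of high FPKM were marked by zeros in 1 or more libraries. Snord42a had 2265, 0 and 0 FPKM in untreated libraries and 0, 4284 and 1730 FPKM in GM-CSF libraries, from 3 and from 8 and 2 reads, with a log2 difference of 3.89 and an SE of 4.16. Snord68 had 3687 FPKM (8 reads) in untreated replicate 2 and 0 in the other 5 libraries. Snord45b had 1510.0 FPKM (2 reads) in untreated replicate 1 and 0 in the other 5. Snord12 and Snord57, with SEs of 3.07 and 3.17, were at 0 in 3 libraries each, and Snord100 was at 0 in untreated replicate 2 and GM-CSF replicate 2. These values show how few reads set the order by FPKM.

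There were 6 members, all Snord, above 0 in all untreated libraries and in GM-CSF replicate 1 and at 0 in GM-CSF replicates 2 and 3. Snord47, from the non-coding gene Gas5, had 561, 541 and 479 FPKM in untreated libraries and 1085, 0 and 0 FPKM in GM-CSF libraries. Snord2, from Eif4a2, had 534, 368 and 313 FPKM in untreated and 483, 0 and 0 in GM-CSF libraries. Snord37, from Eef2, had 523, 2519.9 and 804 FPKM against 827, 0 and 0. Snord65, from the transcript 2410006H16Rik, had 177, 2724 and 362 FPKM against 932, 0 and 0. The other two, named after their values were seen, stood at lower FPKM: Snord23 had 49.9, 64.1 and 17.0 FPKM against 17.5, 0 and 0, and Snord55 had 42.6, 123 and 43.6 FPKM against 135, 0 and 0.

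None of these 6 Snord passed the test with all libraries (limma adjusted p from 0.062 for Snord23 to 0.23 for Snord55). Without GM-CSF replicate 1 all 6 passed (limma adjusted p from 7.54e-07 to 0.0052). They were picked for their zeros in GM-CSF replicates 2 and 3, so this pass followed from the choice and is no separate result. Zeros have no spread on this scale, and Snord55, for example, had only 1, 3 and 1 reads in untreated libraries. In that fit 10 members were called, 2 upwards and 8 downwards, against 4 with all libraries, so 1 library decided that count. These 10 were 13.7% of the 73 members tested in that fit, against 15.9% of all genes in the same fit. Without GM-CSF replicate 3 there were 7 called members, 4 upwards and 3 downwards (9.33% of 75, against 17.8% of all genes). Snord69, in Gnl3, had 445, 143 and 760.0 FPKM in untreated and 0, 0 and 169.9 FPKM in GM-CSF libraries (log2 difference -6.04, SE 2.01, adjusted p = 0.081), and passed without GM-CSF replicate 3 (adjusted p = 0.0013). Snord96a, in Gnb2l1 (the RACK1 ribosomal scaffold gene), had 1257, 173 and 230.0 FPKM in untreated and 521, 0 and 206 FPKM in GM-CSF libraries, with overlap (log2 difference -2.96, SE 2.30).

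**Figure D5:**
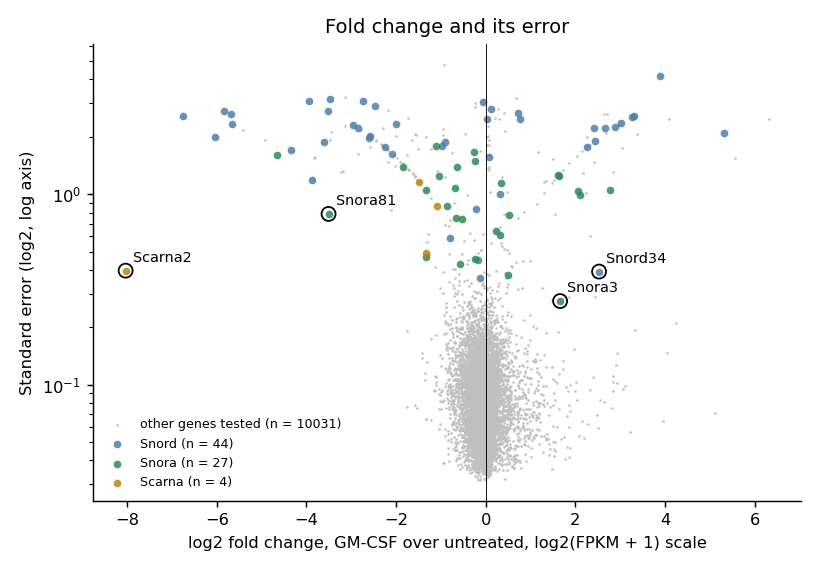
Log2 difference between GM-CSF and untreated libraries (x, log2(FPKM + 1) scale) against its standard error (y, log axis) for 75 members and 10031 other genes tested. The members lie above nearly all other genes, with a median SE of 1.63, and the 4 circled members passed the adjusted threshold of 0.05.

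Host genes were found by position on the same strand for 105 of the 118 members, in 78 genes. Of these members 55 lay in introns only and 50 overlapped an exon of at least 1 annotated transcript of the host, where reads of the host and of the member cannot be told apart. Snord34 is of the first kind, and Snora3, Snora70 and Snora81 are of the second. No host was found for Scarna2, which is known as an independently transcribed gene.

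Among the hosts of tested members, those that passed the test were lower with GM-CSF. Of 52 hosts of tested members that were themselves tested, 23 fell (44.2%) and 0 rose, with a median log2 difference of -0.19. Over all genes tested 14.2% fell. Of genes of 350 nt and longer, 26.9% were called in either direction at 10 to 100 FPKM and 47.2% at 100 to 1000 FPKM. Of the 78 hosts, 27 were above 100 FPKM, so an excess over genes of like level cannot be read from these shares. With median-of-ratios scaling 17 hosts fell and 1 rose, and all genes split into 1008 higher and 1039 lower calls, against 776 and 1436 as deposited. Over 68 pairs of member and host, the log2 differences had a Pearson r of 0.12 (points share libraries and, in part, hosts). Rpl27a, host of Snora3, had 204 ± 4.03 (SD, n = 3) FPKM without and 169 ± 3.63 (SD, n = 3) FPKM with GM-CSF and fell by 0.27 on the log2 scale (SE 0.04, limma adjusted p = 0.0030). Rpl13a, host of Snord34, was at 253 ± 11.6 (SD, n = 3) and 219 ± 15.6 (SD, n = 3) FPKM, a log2 difference of -0.20 that did not pass (limma adjusted p = 0.067). Eif4a2, host of Snora81 and Snord2, fell by 0.23 on the log2 scale (SE 0.04, limma adjusted p = 0.0079), a call that ended on single transcripts (adjusted p = 0.17). Among hosts of members that were not tested, Cct6a (host of Snora15) and Atg16l1 (host of Scarna6), named after their values were seen, rose by 0.16 and 0.29 on the log2 scale (limma adjusted p = 0.040 and 0.038).

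Detection was also counted by the level of the host. Of 38 members in hosts above 100 FPKM, 5 were at 0 in all libraries and the median total was 15 reads. Of 67 members in hosts at or below 100 FPKM, 29 were at 0 throughout and the median was 2 reads. Across 105 members, total reads and host FPKM had a Spearman rho of 0.42, as a description across genes that share libraries. Of these, 50 overlapped an exon of the host, where reads of the host can count as reads of the member. The 55 in introns only were not taken apart.

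The mRNAs of the proteins that carry these RNAs were measured with smaller errors, with an SE of 0.05 for Fbl and 0.14 for Nop10 on the log2 scale. Protein was not measured. None of the 4 mRNAs found for box C/D proteins passed, where 21.9% of all genes tested did. That of fibrillarin (Fbl), the methyltransferase, had 36.0 ± 0.42 (SD, n = 3) FPKM without and 34.7 ± 1.66 (SD, n = 3) FPKM with GM-CSF. The sign of its difference turned with median-of-ratios scaling. Nhp2l1, which binds the box C/D fold, was at 38.9 ± 0.33 (SD, n = 3) and 43.1 ± 1.71 (SD, n = 3) FPKM (limma adjusted p = 0.058). None of the 4 mRNAs of box H/ACA proteins passed. Nhp2 was at 39.7 ± 1.66 (SD, n = 3) and 33.0 ± 3.89 (SD, n = 3) FPKM (limma adjusted p = 0.075) and Nop10 at 23.9 ± 5.30 (SD, n = 3) and 22.2 ± 1.30 (SD, n = 3) FPKM. Nhp2l1 passed under 3 of 17 alternatives and Nhp2 under 3.

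Of 10 assembly factors tested, 1 rose and 0 fell: Znhit3, a factor of box C/D assembly, from 4.90 ± 1.31 (SD, n = 3) to 8.99 ± 1.09 (SD, n = 3) FPKM (log2 difference 0.78, SE 0.18, limma adjusted p = 0.023). Of 9 genes tested from the Cajal body list, 2 fell. One was Gemin5, which recognises spliceosomal RNAs for the SMN complex, by 0.34 on the log2 scale (limma adjusted p = 0.032). The other was Usp2, a ubiquitin protease that is no known part of Cajal bodies and stood on the list in error, by 0.41 (limma adjusted p = 0.019). Uspl1, the Cajal body protein of similar name, was looked up afterwards and had a log2 difference of -0.11 (SE 0.06, limma adjusted p = 0.24). Of 11 processing genes, 1 rose and 2 fell. Over all genes tested, 21.9% passed (7.68% upwards and 14.2% downwards), so the count of the processing list is near that share. Without Usp2, Gemin5 was the only gene of the Cajal body list that passed. Exosc10, the nuclear exosome nuclease that trims small nucleolar RNAs, rose by 0.25, from 23.9 to 28.7 FPKM. Dbr1, which debranches intron lariats, fell by 0.33, from 10.1 to 7.80 FPKM, and Larp7, a binder of small nuclear RNA, fell by 0.32, from 15.8 to 12.5 FPKM. Several of these calls ended when 1 library was left out or under another setting. That of Znhit3 ended without GM-CSF replicate 1 or 3 (limma adjusted p = 0.061 and 0.071), with no filter (0.053) and on single transcripts (0.055). That of Usp2 ended without untreated replicate 1 or 2 (limma adjusted p = 0.062 and 0.069) and on single transcripts (0.063). That of Dbr1 ended without untreated replicate 2 or GM-CSF replicate 2 or 3 (limma adjusted p = 0.058, 0.059 and 0.058) and with quantile normalization (0.068). That of Gemin5 ended without any 1 library but GM-CSF replicate 2 (limma adjusted p = 0.077 to 0.091) and with quantile normalization (0.085). Of 26 genes tested from the fixed list of host genes, 11 fell (against 14.2% of all genes) and 0 rose. Among them were Rpl10a by 0.32 and Gnb2l1 by 0.28 on the log2 scale. Gnb2l1 was also found as a host by position, while no member here was placed in Rpl10a. Many of these genes are abundant, and the list was not compared with genes of like level. At 100 to 1000 FPKM, 47.2% of genes of 350 nt and longer were called in either direction.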

How the data were processed

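Polyadenylated RNA of 6 eosinophil cultures was measured, 3 untreated and 3 with GM-CSF. Per the submitters' processing notes, Cufflinks, TopHat, TopHat2 and bcl2fastq 1.8.4 were used with the build mm10, with no roles or settings stated. The authors deposited FPKM values with a confidence interval, a coverage and a length per transcript for 30374 RefSeq transcripts, per the file headers. The deposited coverage and interval bounds were used only to recover depth and the value of 1 read, and the deposited bounds are on the FPKM scale. The treatment of reads shared by several transcripts is not given in the sources.

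FPKM were summed per symbol. Genes averaging 1 FPKM or more were tested on log2(FPKM + 1) with limma 3.58.1 in R 4.3.3 (empirical Bayes with a trend, two-sided, Benjamini-Hochberg, threshold 0.05). This log2 scale, with a pseudocount of 1, sets the size of a change of low genes and of genes listed at 0. The fit was tested on data simulated with normal noise on the log2 scale, not as read counts with zeros. That test therefore does not check the fit for members at few reads. The SEs of limma do not model counting error, so those of members at few reads can be too small. Values per library were compared by exact permutation tests. Intervals from read numbers cover counting error only.

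The members, the gene lists and the rule for named genes were chosen with earlier results of these data known. The rule takes members past the threshold, members seen in every library of 1 group and in none of the other, the 12 highest by mean FPKM, the 5 smallest and 5 largest SEs, 9 fixed members, and, from every list, the 3 genes that passed with the largest differences (or the 2 most abundant where none passed), with the hosts of the members named. Names outside this rule are marked in the text as chosen afterwards, or belong to the cell marker lists or to the members listed by class, by host or by reads. Hosts and sequences came from GENCODE M21 and, for transcript positions, RefSeq, both on the mm10 build; 1 member had no position. Alternatives covered the pseudocount, the filter, scaling, the variance model, a replicate block, single transcripts and each library left out; approximate reads and thinning were chosen after seeing the data.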

Additional observations from a re-analysis of the deposited data

How the results depend on the processing

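Counts of called members were 3 to 6 in all alternatives but 2: leaving out GM-CSF replicate 1 gave 10 and leaving out GM-CSF replicate 3 gave 7, against 4 with all libraries. With each library left out in turn, called members ranged from 3 to 10, called hosts from 17 to 22, genes called from 1515 to 1795 of all genes, the difference in members detected from -13.3 to -5.83 and that in summed FPKM from -4861 to -1417.9. Same-numbered libraries showed no clear shared deviation, with correlations of -0.03, 0.05 and -0.02. This cannot exclude that they were paired. With the replicate block, 5 members passed (Scarna2, Snora3, Snord34, Snora17 and Snord69) and 1996 genes in all, and Snora81, Znhit3 and Gemin5 did not pass (adjusted p = 0.076, 0.066 and 0.075). Snora81 also missed the threshold with no filter, with robust empirical Bayes and on single transcripts (adjusted p = 0.053, 0.082 and 0.054).

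The sign of the log2 difference turned in genes that did not pass in the first place; ranges are over each library left out. Snord32a ranged from -0.44 (without untreated replicate 3) to 3.92, Snord16a from -0.41 to 0.26 (0.078 without untreated replicate 3), Snord100 from -2.82 to 2.67 (1.31 and 1.33 without untreated replicates 1 and 3), Snord22 from -0.56 to 0.20 (0.14 without GM-CSF replicate 3), Nop10 from -0.18 to 0.086 and the host 2410006H16Rik from -0.13 to 0.057 (0.029 and 0.0072 without untreated replicate 2 and GM-CSF replicate 3). With median-of-ratios factors Fbl was at 0.0099 and 2410006H16Rik at 0.038; with quantile normalization Snord100 was at 0.0039 and 2410006H16Rik at 0.0064. The cause was not tested.

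Depth limits the members: 37 rest on fewer than 10 reads in all, and a 0 allows up to 3 reads in a library. With 3 libraries per group no exact test can go below p = 0.1. The library kit is a further limit, because it selects polyadenylated RNA and the mature members carry no poly(A) tail. Neither the values, the zeros nor the differences between the groups can be read as levels of the mature RNAs.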
